A study of Mus musculus with 36 samples.

Results

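The accessible chromatin of naive CD4 T cells lacking HP1α was compared with that of wild-type (WT) cells by ATAC-seq, in which the transposase Tn5 cuts and tags DNA where nucleosomes leave it open. The comparison rests on the libraries labelled naive with the HP1α knockout (KO) or HP1α WT genotype, 3 against 3, which are 6 of the 36 libraries of the series, and on all 71509 peaks of the table. In the remaining libraries, conventional T cells (Tconv) with or without HP1α or HP1γ were recovered from bone marrow-grafted mice with or without regulatory T cells (Treg), and naive HP1γ cells were profiled as well. According to the methods, the HP1α line carries a floxed Hp1a (Cbx5) allele whose floxed sequence was excised by a cross with CMV-cre transgenic mice, a transgene that is not restricted to T cells. Heterozygotes were intercrossed to give KO mice and +/+ controls on a mixed 129/Sv and C57BL/6 background, and sex-matched adult littermates were used. Naive CD4 T cells were taken from the spleen with a negative-selection magnetic kit and were not transferred or grafted. The origin of a locus from 129/Sv or C57BL/6 in each library is not given by the labels, so that a difference linked to strain and one caused by genotype cannot be told apart.

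HP1α, encoded by Cbx5, is one of the heterochromatin protein 1 family, whose chromodomain binds histone H3 methylated on lysine 9 and whose chromoshadow domain recruits other silencing factors. The H3K9 methyltransferases SUV39H1 and SETDB1 lay down the mark, and HP1 proteins help to keep repeats, clustered zinc finger and protocadherin genes and lineage-inappropriate genes compact. HP1β (Cbx1) and HP1γ (Cbx3) share the same domains and partly the same targets. Naive CD4 T cells are resting cells that have left the thymus and have not yet met antigen, and they are marked by open Ccr7, Lef1 and Tcf7 loci.

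The naive libraries held between 55.3 and 96.8 M reads in peaks, of which 73.2 to 75.1% fell in peaks no more than 1 kb from the start site of a transcript (TSS). The summed level of the naive CD4 T cell markers, among them Ccr7, Lef1, Tcf7, Cd4 and Cd3e, was 1133 to 1431 CPM (read counts scaled to library size with TMM factors) in the naive libraries and 650.1 to 808 CPM in the Tconv libraries, with no overlap, as the label has it. It did not separate the genotypes (KO over WT 0.962, exact two-sided permutation p = 0.9, where 3 against 3 allows no p below 0.1). The CD8 T cell marker with a TSS peak, Cd8b1, stood at 31.7 to 35.1 CPM, against 3.18 to 8.67 CPM in Tconv, and did not separate the genotypes (exact permutation p = 0.6). B cell markers lay at 6.39 to 8.57 CPM with 5 of 7 genes lacking any TSS peak, and erythroid markers at 14.1 to 17.8 CPM (KO over WT 1.12, exact permutation p = 0.2). Replicate 1 of both genotypes stood apart on the first principal component, at -99.2 for WT and -73.8 for KO against 28.5 to 56.6 in the others. Libraries with the same number deviated together (r = 0.465, 0.224 and 0.236 for numbers 1, 2 and 3). KO replicate 2 with WT replicate 3 (r = 0.266) and KO replicate 3 with WT replicate 2 (r = 0.227) did so about as much. Only replicate 1 is thus set apart as a pair, and a pairing of numbers 2 and 3 is not shown. The replicate number was still used as a block. Values of the naive comparison fitted with it are given wherever they change a call. What the number stands for is not given in the labels.

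Most of the accessible genome of naive cells differed little without HP1α. The median log2 fold change (KO over WT) over all peaks was 0.00, the median standard error 0.22, and for 77.5% of peaks the whole 95% interval lay within a change of 2-fold in either direction. Peaks counted as called had an adjusted p below 0.05 in edgeR's quasi-likelihood test and an absolute log2 fold change above 1. Only 4 of 71509 (0.00559%) met this, of which 3 were higher (0.0042%) and 1 was lower (0.0014%) without HP1α. At an unadjusted p below 0.05 there were 835 peaks (1.17%), of which 277 were higher (0.387%) and 558 lower (0.78%). The KO and WT libraries did not overlap in 4665 peaks (6.52%). With only the 6 naive libraries and the replicate number as a block, hereafter the blocked comparison, the spread was much smaller (biological coefficient of variation 8.6% against 26.6%, with 18.2% in the 6 libraries without the block and 27.3% in the 15 with it) and 58 of 67008 peaks were called (0.0866%), 11 higher (0.0164%) and 47 lower (0.0701%), against 2 (0.00298%) without the block. Leaving out 1 naive library moved the count of 4 to 8 without WT replicate 1 or KO replicate 2 and to 2 without WT replicate 3. In the blocked comparison 90.1% of intervals lay within 2-fold, and 208 peaks (0.31%), 43 higher (0.0642%) and 165 lower (0.246%), passed on the adjusted p alone. The block alone, in the 15 libraries, gave 5 calls (0.00699%), 3 of them higher.

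The T cell programme was among what did not separate the genotypes. The promoter peak of Cd3e, a chain of the T cell receptor complex, held 90.9, 89.7 and 89.8 CPM in the KO libraries and 94.3, 85.7 and 88.5 CPM in the WT libraries. These ranges overlapped, and the log2 fold change was 0.01 (SE 0.13, 95% interval -0.27 to 0.29, adjusted p = 1). Ccr7, the receptor that guides naive cells to lymph nodes, had the highest of these levels, at 405, 355 and 351 CPM in the KO libraries and 472, 336 and 345 CPM in the WT libraries, with 1 WT library above all others and a log2 fold change of -0.05 (SE 0.15, 95% interval -0.37 to 0.26, adjusted p = 1). The main Cd4 peak held 107, 99.9 and 103 CPM in the KO libraries and 109, 100.4 and 101.4 CPM in the WT libraries, with overlapping groups and a log2 fold change of -0.01 (SE 0.11, 95% interval -0.24 to 0.23, adjusted p = 1).

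The deleted gene itself gave no check of the labels. Of the 3 peaks that overlap Cbx5 (chr15:103099505-103148419, GRCm39), the one at an internal TSS held 15.1, 17.8 and 16.6 CPM in the KO libraries and 13.9, 17.3 and 17.6 CPM in the WT libraries and did not separate the genotypes (log2 fold change 0.01, SE 0.13, 95% interval -0.26 to 0.28, adjusted p = 1). The promoter that Cbx5 shares with Hnrnpa1, at chr15:103146941-103150360, held 201, 200.5 and 194 CPM in the KO libraries and 259.7, 189 and 192 CPM in the WT libraries, with a log2 fold change of -0.11 (SE 0.14, 95% interval -0.41 to 0.19, adjusted p = 1). The third, nearest to the TSS of Gm62984, held 0.131, 0.2703 and 0.241 CPM in the KO libraries and 0.196, 0.281 and 0.202 CPM in the WT libraries, a low level with a log2 fold change of -0.08 (SE 0.58, 95% interval -1.3 to 1.14, adjusted p = 1). The excised exons are not stated to lie under any of these peaks, so equal levels say nothing of the excision. Within 2 Mb of the Cbx5 TSS, 153 peaks had a median log2 fold change of 0.07 and none was called.

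The called peaks are shown by the central 200 bases of each, together with the Gm49957 peak, which was called in the blocked comparison and shares sequence with its chromosome 12 neighbours. Bases in capitals lie in stretches of 31 bases that occur more than once in the GRCm39 genome, from which all 5 windows were read.
Gm54974 (chr7:42629671-42629870, + strand): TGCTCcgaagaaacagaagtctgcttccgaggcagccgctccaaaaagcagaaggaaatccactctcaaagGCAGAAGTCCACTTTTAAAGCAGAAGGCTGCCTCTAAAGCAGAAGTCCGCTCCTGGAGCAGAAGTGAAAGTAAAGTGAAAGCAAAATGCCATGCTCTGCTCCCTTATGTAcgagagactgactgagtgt
1700030C10Rik (chr12:20865536-20865735, + strand): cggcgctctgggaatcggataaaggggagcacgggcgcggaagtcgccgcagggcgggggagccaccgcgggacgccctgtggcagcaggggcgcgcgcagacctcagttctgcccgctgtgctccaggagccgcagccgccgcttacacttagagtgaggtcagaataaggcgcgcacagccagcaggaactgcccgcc
Gm49700 (chr12:20664966-20665165, + strand): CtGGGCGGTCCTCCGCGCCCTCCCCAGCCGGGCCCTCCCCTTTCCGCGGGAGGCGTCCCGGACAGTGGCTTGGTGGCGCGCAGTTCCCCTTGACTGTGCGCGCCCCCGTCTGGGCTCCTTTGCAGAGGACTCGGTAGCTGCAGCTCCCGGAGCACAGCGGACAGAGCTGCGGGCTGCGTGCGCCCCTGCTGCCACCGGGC
Gm49957 (chr12:19338581-19338780, + strand): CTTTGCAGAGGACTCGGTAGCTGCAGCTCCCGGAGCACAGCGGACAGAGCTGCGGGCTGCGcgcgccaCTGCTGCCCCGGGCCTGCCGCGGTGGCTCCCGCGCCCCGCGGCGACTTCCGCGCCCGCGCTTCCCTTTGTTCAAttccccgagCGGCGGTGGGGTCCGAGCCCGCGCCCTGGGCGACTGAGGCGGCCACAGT
Gm68273 (chr6:28923326-28923525, + strand): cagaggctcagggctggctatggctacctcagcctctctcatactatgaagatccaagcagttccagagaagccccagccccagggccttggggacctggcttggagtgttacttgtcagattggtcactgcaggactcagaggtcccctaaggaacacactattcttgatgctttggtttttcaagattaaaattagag
In the Gm54974 window 57.5% of bases were in capitals, in those of Gm49700 and Gm49957 99.5% and 92.0%, and in those of 1700030C10Rik and Gm68273 none. The Gm49700 and Gm49957 peaks share an identical run of 66 bases in the same orientation, and 1700030C10Rik shares runs of 58 bases with Gm49957 and 43 bases with Gm49700 on the opposite strand. Between the other pairs of these 5 peaks the longest shared run was 9 to 12 bases. Reads from copies of this kind may be placed at any of them, and the methods kept reads with a mapping quality of at least 30.

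The peak with the smallest p, chr7:42629141-42630400, is intergenic, and its nearest TSS belongs to the microRNA gene model Gm54974. It held 9.69, 10.1 and 8.54 CPM in the KO libraries and 2.35, 1.54 and 1.54 CPM in the WT libraries. All KO libraries lay well above all WT libraries, with a log2 fold change of 2.45 (SE 0.18, 95% interval 2.08 to 2.82, adjusted p = 3.96e-06). It was called in all 31 alternative fits, between 2.27 and 2.61. In Tconv, which share no library with the naive cells, the same peak held 7.91, 7.04 and 8.07 CPM in the KO libraries and 2.48, 3.21 and 2.56 CPM in the WT libraries, again with no overlap, for a log2 fold change of 1.5 (SE 0.21, unadjusted p = 1.27e-06). Loss of HP1γ left this peak at 2.22, 3.41 and 1.66 CPM in the KO libraries and 2.56, 2.23 and 1.95 CPM in the WT libraries, and the difference between the effects of HP1α and HP1γ was 2.48 (SE 0.31, 95% interval 1.83 to 3.14, adjusted p = 0.00616).

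Among the called peaks the largest gain in absolute level was at the start of the long non-coding RNA gene 1700030C10Rik, chr12:20864981-20866290. The counts came to 28.98, 38.3 and 36.5 CPM in the KO libraries and 6.25, 5.62 and 5.997 CPM in the WT libraries, every KO library far above every WT library. Its log2 fold change was 2.55 (SE 0.24, 95% interval 2.04 to 3.06, adjusted p = 0.000147) in naive cells and 3.8 (SE 0.35, unadjusted p = 2.94e-09) in Tconv, where the libraries held 41.9, 32.2 and 20.9 CPM in the KO libraries and 1.27, 3.47 and 7.54 CPM in the WT libraries. In naive HP1γ cells the levels were 4.72, 6.69 and 2.78 CPM in the KO libraries and 4.08, 2.97 and 3.13 CPM in the WT libraries, a log2 fold change of 0.31. In naive cells the effect of HP1α loss exceeded that of HP1γ loss by 2.24 (SE 0.3, 95% interval 1.59 to 2.89, adjusted p = 0.0102). In Tconv without Treg, HP1γ KO libraries held 6.95, 5.77 and 6.42 CPM and HP1γ WT libraries 1.60, 1.28 and 1.52 CPM, without overlap. The call was lost in 1 of 31 alternative fits, that with edgeR's older dispersion estimate.

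On the same chromosome, at the TSS of the long non-coding RNA gene Gm49700 (chr12:20664591-20665540), the levels were 7.25, 8.43 and 7.34 CPM in the KO libraries and 3.79, 2.19 and 2.55 CPM in the WT libraries. The groups were separate, with WT replicate 1 the nearest to the KO range. The log2 fold change was 1.51 (SE 0.19, 95% interval 1.11 to 1.91, adjusted p = 0.00589), and it stayed called in 27 of 31 alternatives, the lost ones being only the 6 naive libraries (1.5), the older dispersion estimate (1.44) and the fits without WT replicate 2 (1.33) or 3 (1.45). Here the HP1γ effect was of similar size, 1.32 (SE 0.19, unadjusted p = 4.25e-06), and the difference between both effects was 0.19 (SE 0.25, 95% interval -0.34 to 0.72, adjusted p = 0.809). The Gm49957 peak (chr12:19337991-19339370) behaved alike, at 5.96, 6.04 and 5.895 CPM in the KO libraries and 1.87, 1.31 and 1.05 CPM in the WT libraries. KO and WT libraries were far apart, yet with all 15 libraries the log2 fold change of 2.15 (SE 0.4, 95% interval 1.32 to 2.98, adjusted p = 0.205) was not called, while with the block and the 6 naive libraries it was 2.14 (SE 0.15, 95% interval 1.82 to 2.46, adjusted p = 1.39e-05).

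The peak called lower, chr6:28923191-28923660, lies in an intron with Snd1 as the nearest protein-coding gene, and Snd1 encodes a nuclease of RNA-induced silencing complexes. It held 0.196, 0.747 and 0.1604 CPM in the KO libraries and 1.55, 3.18 and 2.74 CPM in the WT libraries, all KO libraries below all WT libraries, with a log2 fold change of -2.77 (SE 0.4, 95% interval -3.61 to -1.92, adjusted p = 0.0295). It was called in 22 of 31 alternatives and kept its sign in each, between -3.86 and -2.30. Without KO replicate 2 it was -3.86. The call was lost without KO replicate 1 (-2.53) or 3 (-2.37) or WT replicate 2 (-2.56) or 3 (-2.74), and without replicate 1 of both genotypes (-2.71). It was also lost with scaling by library size alone (-2.77), with only the 6 naive libraries (-2.77), with log2 depth as a covariate (-2.78) and with the older dispersion estimate (-2.74). A neighbour at chr6:28931721-28932320 held 1.42, 4.38 and 0.481 CPM in the KO libraries and 5.03, 15.1 and 11.4 CPM in the WT libraries, with replicate 2 the highest of both genotypes and KO below WT in every library. In the 15 libraries it was called with the replicate block though not without it, and it stood at -2.4 (SE 0.28, 95% interval -2.99 to -1.81, adjusted p = 0.00124) in the 6 naive libraries with the block. All 4 tested peaks of this stretch of 11.4 kb were lower in the blocked comparison, with a median of -2.41. The median was -2.04 in Tconv and -0.11 in naive HP1γ cells.

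**Figure D1:**
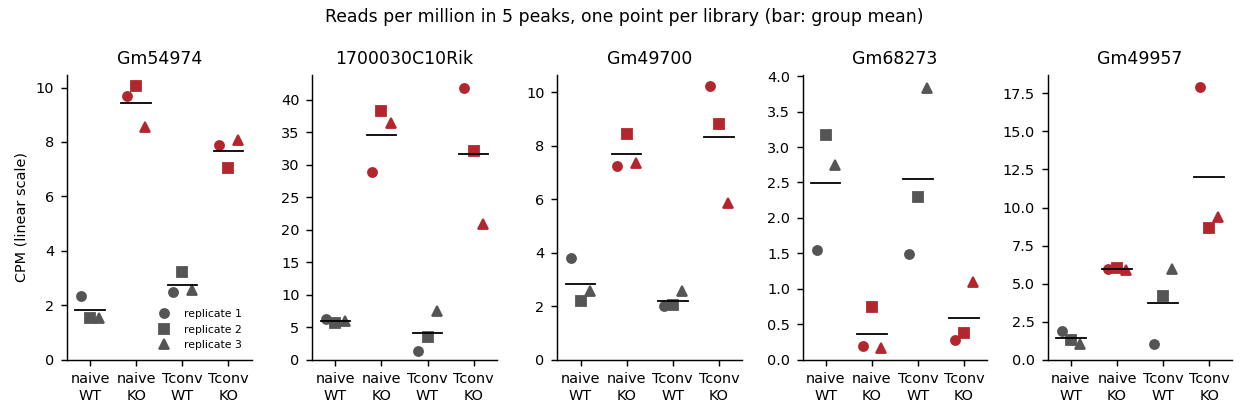
Level of the 4 called peaks and of the Gm49957 peak in each library, in CPM on a linear axis from 0, with naive and Tconv libraries of both HP1α genotypes on the x axis. Symbols give the replicate number and horizontal lines the group means. KO libraries lie above WT libraries in both cell states for Gm54974, 1700030C10Rik, Gm49700 and Gm49957, and below them for Gm68273.

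The 3 peaks on proximal chromosome 12 belong to a wider set of related sequences. A search of all peaks for sequence shared with 1700030C10Rik, Gm49700 and Gm49957 (at least 30 stretches of 31 bases) found 12 others, every one of them on chromosome 12 and every one at a TSS. This set was defined by sequence after the values of the 3 peaks were known, and it is described without a test. In naive HP1α KO cells 10 of the 12 were higher than in WT, 5 of them at an unadjusted p below 0.05 and none lower at that level (0.387% and 0.78% over all peaks), with a median log2 fold change of 0.52. In 5 of the 12 the libraries did not overlap, all KO above all WT, as in 2.9% of all peaks. In HP1α Tconv all 12 were higher, with a median of 0.44, and in naive HP1γ cells 10 of 11 tested were higher, with a median of 1.61 and 6 past an adjusted p of 0.05 (0.591% of all peaks).

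Members of this set differed among themselves. At the promoter-proximal peak of Asap2 at 21039711, near a gene for an Arf GTPase-activating protein, the levels were 9.07, 12.3, 10.2 CPM in KO and 8.27, 6.27, 6.45 CPM in WT, separate but close, and the log2 fold change was 0.62 (SE 0.18, blocked adjusted p = 0.0438). The other Asap2 peak, at 21160721, stood at -0.05 (SE 0.14). The weakly open start of ENSMUSG00000141379 stood at 0.982, 1.52, 1.28 CPM in KO and 0.805, 0.4602, 0.4798 CPM in WT, without passing the adjusted threshold (log2 fold change 1.23, blocked adjusted p = 0.0854). The strongest response of the set in HP1α cells, at 1700030C10Rik, was the one that HP1γ loss moved least in naive cells among the 3 starting peaks. In Tconv without Treg this peak was higher in every HP1γ KO library than in any HP1γ WT library.

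**Figure D2:**
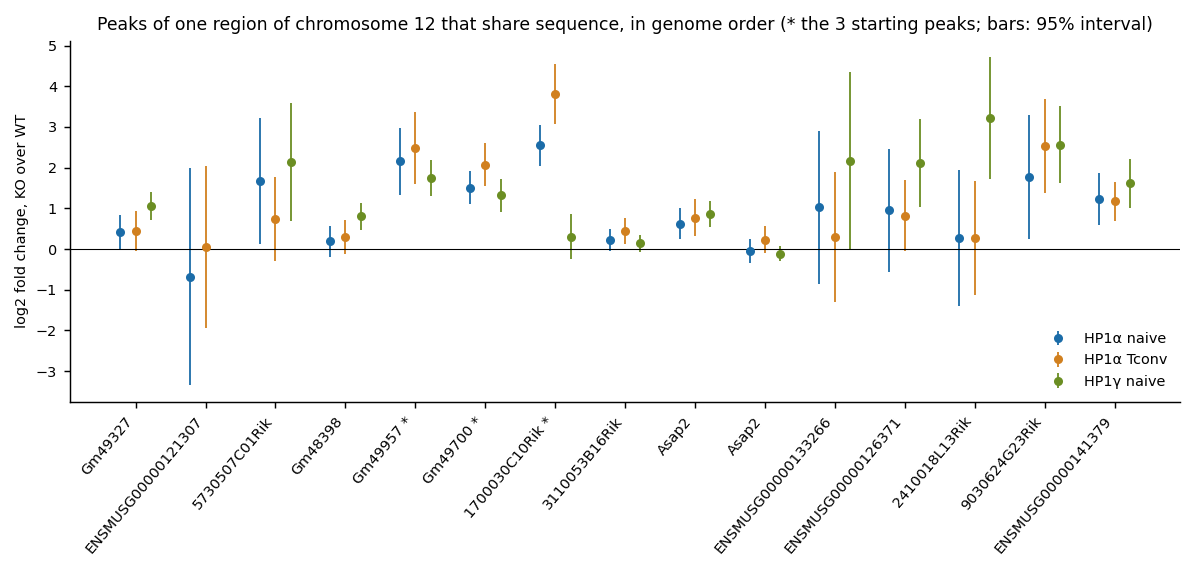
Log2 fold change (KO over WT, y axis) of the 15 peaks of proximal chromosome 12 that share sequence, in genome order on the x axis, for HP1α naive, HP1α Tconv and HP1γ naive cells, where points are estimates and bars 95% intervals. Most points lie above 0, and 1700030C10Rik is high in both HP1α comparisons and near 0 in HP1γ naive cells. HP1γ Tconv are not shown.

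In the blocked comparison 11 peaks were called higher, several of them in repeated sequence. Of these 11, 7 (63.6%) lay at a TSS, against 35.4% of all peaks tested, and 4 (36.4%) had over 50% of their sequence in several copies, against 1.16% of all peaks tested. They include Zfp345 and Zfp1004 on chromosome 2, numbered zinc finger genes, of which Zfp345 held 5.21, 3.15 and 5.08 CPM in the KO libraries and 2.81, 0.943 and 0.745 CPM in the WT libraries and Zfp1004 3.57, 3.42 and 3.13 CPM in the KO libraries and 1.81, 0.808 and 1.59 CPM in the WT libraries. KO exceeded WT in each pair of equal number and, over the groups, without overlap. Their blocked adjusted p-values were 0.00369 and 0.00701, at log2 fold changes of 1.73 and 1.33. With DESeq2 on the same 6 libraries and block the Zfp345 call was lost, and without replicate 2 of both genotypes the change at Zfp1004 fell below the fold threshold. The promoter of Zfp1001, which lies between them, did not separate the genotypes (log2 fold change -0.01, SE 0.17, 95% interval -0.38 to 0.35). Gm40627, at the Traf3ip2 locus, rose from 3.699, 3.09 and 3.37 CPM to 5.501, 8.12 and 8.45 CPM, and Gm8986 from 3.895, 2.77 and 3.33 CPM to 7.96, 9.06 and 6.95 CPM. Neither pair of groups overlapped, and the blocked log2 fold changes were 1.16 (SE 0.13, adjusted p = 0.00118) and 1.29 (SE 0.13, adjusted p = 0.000359). All 11 were also higher in Tconv (46.4% of all peaks were), while in naive HP1γ cells 5 of 11 were (42.2%).

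The larger share of the blocked calls was lower. Among the 47 called lower, 19 (40.4%) lay at a TSS, near the 35.4% of all peaks tested, and their median level was 1.67 CPM against 3.44 CPM for all peaks tested. At the promoter of Slc7a11, the cystine importer, the levels were 3.21, 3.62 and 3.48 CPM in the KO libraries and 8.44, 7.27 and 6.09 CPM in the WT libraries, all KO libraries below all WT libraries, with a blocked log2 fold change of -1.06 (SE 0.12, 95% interval -1.3 to -0.81, adjusted p = 0.000894). Nr3c2, which encodes the mineralocorticoid receptor, held 5.27, 4.61 and 4.13 CPM in the KO libraries and 19.4, 10.6 and 7.69 CPM in the WT libraries, a blocked log2 fold change of -1.34 (SE 0.14, 95% interval -1.63 to -1.05, adjusted p = 0.000378). WT replicate 1 was by far the highest there, with no overlap between the genotypes. Plod2, a collagen lysyl hydroxylase, fell by 1.14 on the log2 scale (adjusted p = 0.00118), from 4.77, 3.91 and 3.67 CPM to 2.24, 1.74 and 1.66 CPM. A weakly open site of Dppa2, a factor of early embryos, had 1.11, 0.772 and 0.802 CPM in the KO libraries and 2.96, 2.62 and 1.78 CPM in the WT libraries and was lower with no overlap (log2 fold change -1.46, SE 0.18, 95% interval -1.85 to -1.07, adjusted p = 0.00209).

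Further peaks passed the adjusted p of the blocked comparison with a change of less than 2-fold, and the examples given here were picked from among them after their values were seen. The promoter of Auts2 held 8.45, 8.56 and 9.505 CPM in the KO libraries and 15.02, 16.9 and 19.3 CPM in the WT libraries, with the groups wide apart and a blocked log2 fold change of -0.96 (SE 0.08, 95% interval -1.12 to -0.79, adjusted p = 0.000102). For Macrod2 the levels were 41.5, 38.4 and 35.5 CPM in the KO libraries and 84.4, 56.8 and 53.8 CPM in the WT libraries, and KO was lower in all libraries by -0.73 (SE 0.08, adjusted p = 0.00136). Map2, a neuronal microtubule protein, stood at -0.69 (adjusted p = 0.00152). Its libraries overlapped, at 9.22, 6.63 and 5.78 CPM in the KO libraries and 15.95, 10.3 and 9.04 CPM in the WT libraries, with KO replicate 1 just above WT replicate 3. Sox17 (-0.66), Nectin3 (-0.6) and Ppargc1a (-0.48) were likewise lower at an adjusted p under 0.05. An intronic peak of Ebf1, the B lineage regulator, was lower (log2 fold change -0.79, SE 0.11, adjusted p = 0.00698), at 2.28, 3.09 and 3.06 CPM in the KO libraries and 3.57, 5.37 and 5.505 CPM in the WT libraries. The Ebf1 promoter went slightly the other way without passing the test (log2 fold change 0.27, SE 0.17, 95% interval -0.09 to 0.64, adjusted p = 1).

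The 165 peaks that were lower at an adjusted p under 0.05 in the blocked comparison, 43.6% of them at a TSS against 35.4% of all peaks tested, were often peaks that are lower in activated cells, and so were the 43 that were higher. In HP1γ-line WT cells, which share no library with this comparison, 94 of the 165 (57.0%) were more than 2-fold lower in Tconv than in naive cells at an adjusted p under 0.05, as were 19 of the 43 (44.2%), against 23.4% of all peaks tested. HP1α KO Tconv were below WT Tconv in 127 of them (77.0%), where 53.6% of all peaks were. At an unadjusted p below 0.05 there, 23 of the 165 (13.9%) were lower, against 3.12% of all peaks tested, and none passed an adjusted p of 0.05. In naive HP1γ cells 63 of 165 were lower (38.2%), against 57.8% of all peaks. Of the 43 peaks higher at an adjusted p under 0.05, 33 were higher in HP1α Tconv (76.7%, against 46.4% of all peaks) and 19 in naive HP1γ cells (44.2%, against 42.2%).

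**Figure D3:**
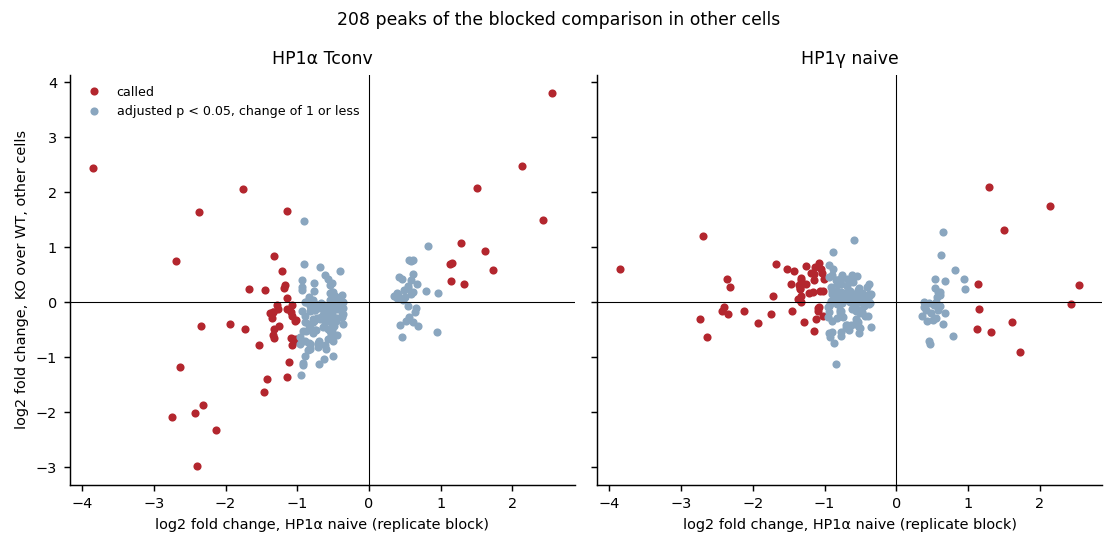
The 208 peaks with an adjusted p under 0.05 in the blocked comparison of 6 naive libraries, with their log2 fold change there on the x axis and that of HP1α Tconv (left) or HP1γ naive cells (right) on the y axis. Red points are the 58 called peaks. All 11 called higher are above 0 in Tconv, and the lower peaks lie mostly below 0 in Tconv and mostly above 0 with HP1γ.

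Peaks of the blocked comparison often lay near others of the same direction. When peaks at an adjusted p under 0.05 were joined across gaps of up to 500 kb, 63 of them, 52 lower, fell into 15 groups of 3 or more, and within each group all those that passed moved in one direction. Counting every tested peak of the stretch, the direction was mixed in the Rnf144a group, with 11 of 16 lower, and in the Tmem26 group, with 7 of 8 lower. The largest stretched over Klf5 and Klf12 on chromosome 14, both Krüppel-like transcription factor genes. All 13 peaks tested there were lower, with a median of -0.94, and 9 passed. The Klf5 promoter had 8.76, 7.196 and 6.06 CPM in the KO libraries and 16.6, 12.98 and 12.6 CPM in the WT libraries, KO below WT in every library. Its log2 fold change was -0.94 (SE 0.08, 95% interval -1.11 to -0.77, adjusted p = 0.000134) with the block and -0.92 (SE 0.27, unadjusted p = 0.00312) without it. At a Klf12 promoter peak the levels were 4.68, 2.21 and 1.63 CPM in the KO libraries and 8.27, 4.602 and 4.48 CPM in the WT libraries, where KO replicate 1 overlapped the WT range and each KO library was below the WT library of its number (log2 fold change -1.07, SE 0.13, 95% interval -1.35 to -0.8, adjusted p = 0.00173). Over those 13 peaks the median was +0.57 in naive HP1γ cells and -0.06 in HP1α Tconv.

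Slc7a11 formed the next group, with all 6 tested peaks lower and past the threshold at a median of -1.10. The HP1γ median over them was +0.48. The Palld group, of an actin-bundling protein, had 7 of 7 peaks lower (median -0.85). The Cntn5 group was one of those that were higher, in 6 of 6 peaks with a median of +0.57. At its Gm18160 peak the libraries held 28.8, 29.4 and 27.4 CPM in the KO libraries and 20.4, 20.5 and 16.3 CPM in the WT libraries. KO was above WT throughout, by 0.59 (SE 0.07, 95% interval 0.43 to 0.75, adjusted p = 0.00209). In Tconv the Cntn5 group had a median of +0.05.

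A further stretch of chromosome 12 split the libraries otherwise than by genotype. At the Trappc12 promoter the levels were 4.797, 7.35 and 7.099 CPM in the KO libraries and 38.1, 6.59 and 33.2 CPM in the WT libraries, so that WT replicate 2 lay within the KO range. Its log2 fold change of -1.96 in naive cells stood against 2.06 in Tconv. Gm47750, near Rnf144a, showed a similar split, WT replicate 2 lying close to the KO libraries, with 0.164, 0.154 and 0.134 CPM in the KO libraries and 2.74, 0.191 and 3.94 CPM in the WT libraries, and 2.45 in Tconv. Gm47733 held 0.0982, 0.245 and 0.281 CPM in the KO libraries and 1.48, 0.213 and 1.86 CPM in the WT libraries, again with WT replicate 2 low, and stood at -2.34 in naive cells and 1.63 in Tconv. These 3 peaks count among the blocked calls. Without the replicate block the difference between both cell states was not called for any of them in edgeR (adjusted p = 0.692 for Trappc12, 0.979 for Gm47750 and 1 for Gm47733). With the block edgeR called 7 peaks for this difference, and its values at these 3 peaks are not given.

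**Figure D4:**
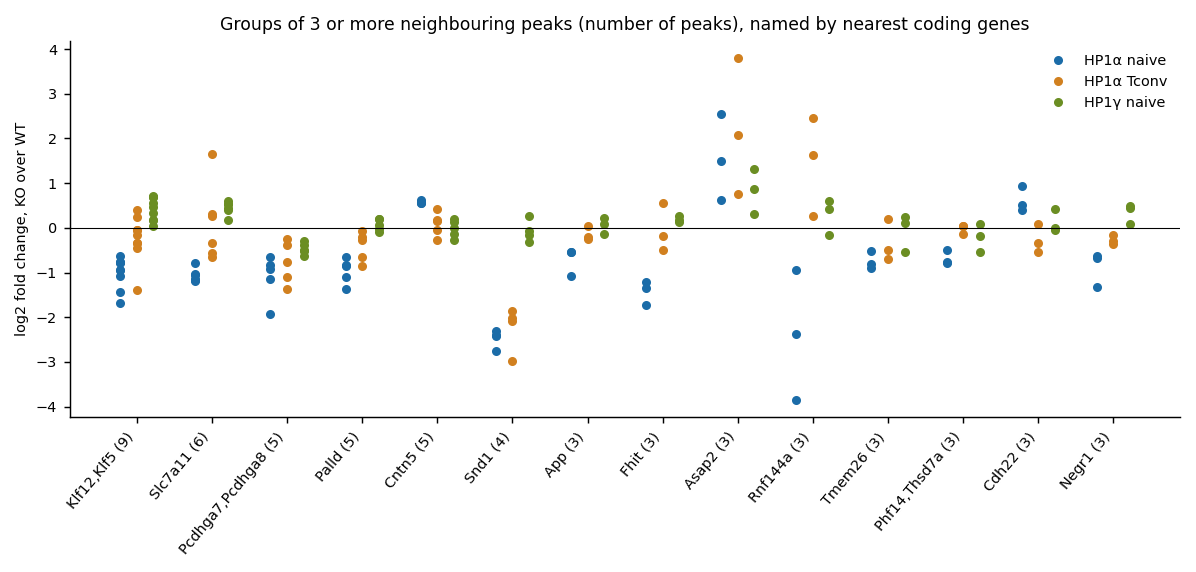
Log2 fold change (KO over WT, y axis) of the peaks past the adjusted p in 14 of the 15 groups of neighbouring peaks (1 group is not reported here), each group named by its nearest coding genes with the number of peaks in brackets, for HP1α naive (blocked comparison), HP1α Tconv and HP1γ naive cells, each point being a peak. The plotted naive HP1α values, which are those that passed, share one sign within every group shown, and those of Klf12 and Klf5 and of Slc7a11 lie below 0 where the HP1γ medians lie above, at +0.57 and +0.48.

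Clustered protocadherin genes, which encode cell adhesion molecules that neurons choose from alternative promoters, had no called peak. Their 20 peaks had a median log2 fold change of -0.64, against 0.00 over all peaks. Of the 20, 10 were lower at an unadjusted p below 0.05, where 0.78% of all peaks were, and none was higher at that level. Taking each peak's nearest coding gene instead gave 26 peaks with a median of -0.34 and the same count of 10. The variable promoters of the gamma cluster held the difference. Of 13, 12 were lower and 10 had all KO libraries below all WT libraries, which was the case in 3.63% of all peaks.

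Pcdhgb5 held 1.85, 2.91 and 2.37 CPM in the KO libraries and 5.81, 5.43 and 4.86 CPM in the WT libraries, all KO libraries below all WT libraries, and a log2 fold change of -1.14 (SE 0.18, 95% interval -1.52 to -0.76, adjusted p = 0.0717). That became -1.14 (SE 0.14, 95% interval -1.44 to -0.85, adjusted p = 0.00164) with the block, and Pcdhga8 (0.475, 0.489 and 0.281 CPM in the KO libraries and 1.81, 1.83 and 1.12 CPM in the WT libraries) was also called in the blocked comparison, at -1.93 (SE 0.23, 95% interval -2.42 to -1.45, adjusted p = 0.00142). Pcdhgb6 stood at 5.48, 7.89 and 6.805 CPM in the KO libraries and 13.2, 11.03 and 12.1 CPM in the WT libraries, lower in each KO library, with a blocked log2 fold change of -0.83 (SE 0.11, 95% interval -1.07 to -0.58, adjusted p = 0.00432). The alternative promoters farther on, which precede the constitutive C-type genes, showed no such shift, their 6 peaks lying between -0.37 and 0.38 with none at an unadjusted p below 0.05. The promoter of Pcdhgc3 had 39.4, 41.01 and 39.4 CPM in the KO libraries and 41.3, 36.7 and 36.8 CPM in the WT libraries (log2 fold change 0.07, SE 0.14, 95% interval -0.22 to 0.35, adjusted p = 1), and that of Pcdhgc4 40.5, 31.5 and 29.5 CPM in the KO libraries and 42.8, 28.3 and 29.5 CPM in the WT libraries (log2 fold change 0.03, SE 0.19, 95% interval -0.37 to 0.42, adjusted p = 1). In Tconv all 13 variable gamma promoters were lower, with a median of -0.74 and 6 at an unadjusted p below 0.05 (3.43% of all peaks). With HP1γ loss 11 of 13 were lower, with a median of -0.43, 7 at an unadjusted p below 0.05 (7.88% of all peaks) and 0 at an adjusted one in edgeR. All 6 peaks of the C-type genes were below 0 with HP1γ loss too, 2 of them at an unadjusted p below 0.05. At Pcdhgb5 the effects of HP1α and HP1γ differed by -0.63 (SE 0.24, 95% interval -1.14 to -0.12, adjusted p = 0.368).

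**Figure D5:**
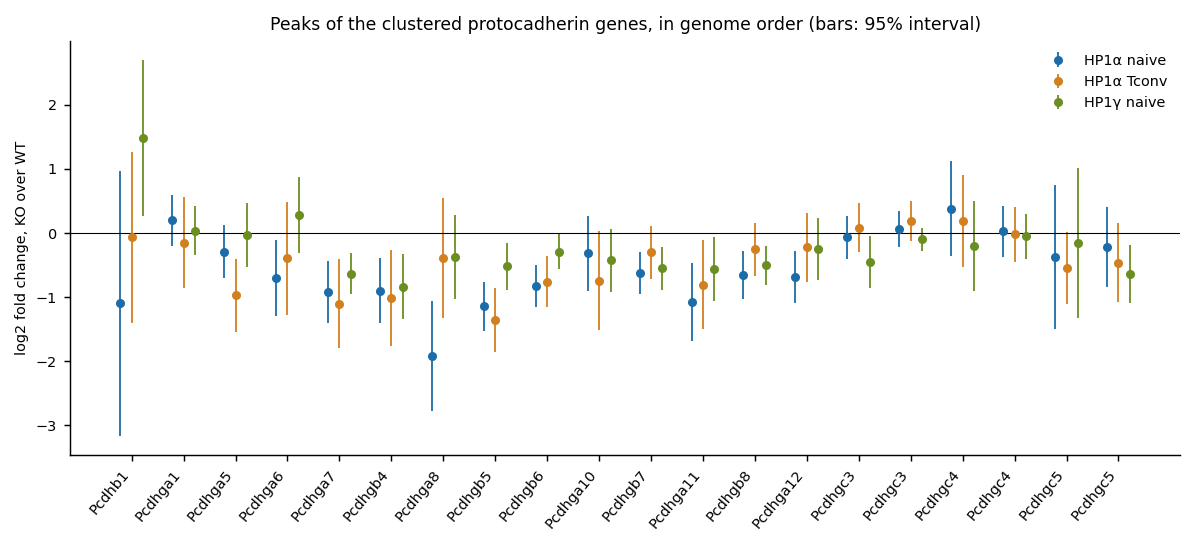
Log2 fold change (KO over WT, y axis) of the 20 peaks of clustered protocadherin genes in genome order (x axis) for HP1α naive, HP1α Tconv and HP1γ naive cells, where points are estimates and bars 95% intervals. In naive HP1α cells 12 of the 13 variable gamma promoters lie below 0, and the main Pcdhgc3 and Pcdhgc4 promoters lie near 0.

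The medians of the T cell gene lists lay near 0. None of their peaks was called, and none passed the adjusted p of the blocked comparison. The 136 peaks of naive-state genes had a median log2 fold change of 0.03 with 2 higher and 0 lower at an unadjusted p below 0.05, and 91.2% of their intervals lay within 2-fold. For the 112 peaks of T cell identity and receptor genes the median was 0.05, with none in either direction at that level. In the blocked comparison 11 of 136 naive-state peaks were higher and 1 lower at an unadjusted p below 0.05, and 11 of 112 identity and receptor peaks were higher and 0 lower, where 3.48% of all peaks were higher and 4.05% lower. Activation and memory genes (91 peaks) had a median of 0.00, Th1 genes (84 peaks) -0.01, Th2 genes (60 peaks) 0.03, Th17 genes (90 peaks) -0.02, Treg genes (78 peaks) 0.03 and inhibitory receptor genes (96 peaks) 0.00. In the 15 libraries only Th17 of these 6 lists had a peak at an unadjusted p below 0.05, at Il1r1, with under 0.2 CPM in each library. In the blocked comparison 0 of 86 activation and memory peaks were higher and 6 lower at that level. For Th1 genes it was 3 and 3 of 74, for Th2 genes 3 and 0 of 53 and for Th17 genes 2 and 3 of 74. For Treg genes it was 2 and 4 of 73 and for inhibitory receptor genes 3 and 0 of 92. Foxp3, the regulator of Treg, held 5.34, 6.62 and 7.51 CPM in the KO libraries and 4.35, 7.11 and 7.37 CPM in the WT libraries (log2 fold change 0.01, SE 0.17, 95% interval -0.35 to 0.37, adjusted p = 1). The promoter of Pdcd1, encoding the checkpoint receptor PD-1, was even at 28.2, 28.9 and 30.5 CPM in the KO libraries and 27.5, 29.2 and 29.2 CPM in the WT libraries (log2 fold change 0.03, SE 0.12, 95% interval -0.24 to 0.29, adjusted p = 1), and that of Tbx21, the Th1 regulator, had overlapping groups at 14.2, 17.3 and 18.1 CPM in the KO libraries and 12.8, 16.4 and 16.7 CPM in the WT libraries (log2 fold change 0.1, SE 0.16, 95% interval -0.24 to 0.45, adjusted p = 1).

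Genes of the HP1 and H3K9 methylation machinery (76 peaks) had a median of -0.02, with none past an unadjusted p of 0.05 in the 15 libraries. In the blocked comparison 0 of 74 were higher and 2 lower at that level, where 3.48% and 4.05% of all peaks were. Cbx1, which encodes HP1β, had 37.5, 48.5 and 47.3 CPM in the KO libraries and 38.95, 43.3 and 46.1 CPM in the WT libraries, with overlapping groups (log2 fold change 0.05, SE 0.16, 95% interval -0.29 to 0.4, adjusted p = 1), and the promoter of the methyltransferase gene Suv39h1 49.98, 51.03 and 48.9 CPM in the KO libraries and 59.5, 50.8 and 50.8 CPM in the WT libraries (log2 fold change -0.1, SE 0.14, 95% interval -0.39 to 0.19, adjusted p = 1). Numbered zinc finger genes had 617 peaks with a median of 0.00, of which 4 were higher and 2 lower at an unadjusted p below 0.05 (0.387% and 0.78% of all peaks). In the blocked comparison 3 of 609 were higher and 1 was lower at an adjusted p below 0.05 (0.0642% and 0.246% of all peaks). Interferon-stimulated genes (46 peaks, median -0.01) and survival genes (57 peaks, median 0.00) had no peak at an unadjusted p below 0.05 in the 15 libraries, nor had germline genes, which had 7 peaks in all. Among imprinted genes (45 peaks, median 0.04) a Meg3 peak was higher, at 2.095, 3.39 and 3.07 CPM in the KO libraries and 1.52, 1.93 and 2.18 CPM in the WT libraries, and a Peg10 peak lower, at 0.655, 1.03 and 0.695 CPM in the KO libraries and 1.72, 1.31 and 1.26 CPM in the WT libraries. The Meg3 groups touched at 1 library each and the Peg10 groups were separate, with unadjusted p-values of 0.00723 and 0.0122 and adjusted p-values of 1 and 1 in edgeR. Markers of other cells gave 0 calls. Of 13 B cell marker peaks (median 0.08) 2 were lower at an unadjusted p below 0.05 in the 15 libraries (0.78% of all peaks). In the blocked comparison 2 of the 13 were higher and 2 lower at that level (3.48% and 4.05% of all peaks). Of these, 1 lower peak passed the adjusted p (0.246% of all peaks). The NK cell marker genes summed to 26.2 to 36.2 CPM and the myeloid ones to 32.6 to 41.5 CPM in the naive libraries. Neither separated the genotypes (exact permutation p = 0.6 for each).

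Whether HP1α loss acted differently in naive cells and in Tconv was tested as the difference of both effects over 71509 peaks. In edgeR 0 peaks were called (0.0%), against 1286 at an unadjusted p below 0.05 (1.8%). DESeq2 called 1 and limma 0, and with the replicate block edgeR called 7. The precision was low, and only 50.1% of intervals lay within 2-fold. In Tconv alone 15 peaks were called (0.021%).

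The effects of HP1α and HP1γ loss in naive cells differed at 57 of 69174 peaks (0.0824%), 9 of them with a higher (0.013%) and 48 with a lower (0.0694%) effect of HP1α, and with the replicate block at 1403. Without 1 library the count ranged from 17 (HP1α KO replicate 2) to 284 (HP1γ KO replicate 3). The HP1γ KO mice, unlike their controls, carry a Cd4-cre transgene. In 49 of the 57 the HP1γ effect passed an adjusted p of 0.05, and in 13 the HP1α effect an unadjusted one. Of those 13, 9 were lower and 4 higher in HP1α KO. Since the 57 peaks were chosen for a large difference, the signs of both effects in them are partly fixed by that choice. The Klf5 promoter was one of the 9, with -0.92 and 0.68 and a difference of -1.61 (SE 0.22, 95% interval -2.08 to -1.14, adjusted p = 0.0106). The Slc7a11 promoter was another, with a difference of -1.67 (SE 0.23, 95% interval -2.16 to -1.17, adjusted p = 0.0111) and HP1γ levels of 9.72, 9.796 and 8.66 CPM in the KO libraries and 7.31, 4.53 and 6.09 CPM in the WT libraries. At Gm65958, in Negr1, the naive HP1α libraries held 1.87, 1.34 and 1.66 CPM in the KO libraries and 4.59, 4.41 and 3.18 CPM in the WT libraries, KO below WT throughout, and the difference from HP1γ was -1.76 (SE 0.26, 95% interval -2.31 to -1.21, adjusted p = 0.0164).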

How the data were processed

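ATAC-seq reads were, per the methods and processing notes, trimmed (Trim Galore 0.6.7), aligned to GRCm39 with BWA, filtered for mapping quality and blacklisted regions and deduplicated, and peaks were called per sample and merged. The authors deposited raw counts per merged peak (featureCounts 2.0.3), which enter every value here. Of 71512 intervals, 3 of zero width were left out. Depth limits the precision at weak peaks, and intervals cover the spread between libraries. The labels do not say that replicates came from separate mice, so p-values measure the spread between these libraries.

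The 15 HP1α libraries the study kept were fitted with edgeR 4.0.16 (R 4.3.3) by quasi-likelihood with TMM scaling, filterByExpr and Benjamini-Hochberg adjustment over all peaks tested, and called at an adjusted p below 0.05 and an absolute log2 fold change above 1. Levels are CPM scaled over all 36 libraries. Naive HP1γ cells were compared in a fit of both lines. DESeq2 1.42.0, limma 3.58.1, other scalings, the replicate block, depth and GC terms and leaving out each library were alternatives. Same-numbered KO and WT libraries correlated at 0.465, 0.224 and 0.236 in their deviations from the group means, which meets the criterion of over 0.1 for a pairing. KO replicate 2 with WT replicate 3 (0.266) and KO replicate 3 with WT replicate 2 (0.227) met it too, so it does not separate numbers 2 and 3. With replicate 1 against the others as the block, 56 peaks were called, 50 of them shared with the blocked comparison. On simulated counts the fit of 15 libraries was liberal when all groups varied equally and close to nominal when naive libraries varied as observed. In the data only 1.17% of peaks had an unadjusted p below 0.05 in that fit, well below the share this threshold allows. The simulation therefore does not describe how that fit behaves here. No simulated outcome is given for the blocked comparison, where 7.53% of peaks did.

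Peaks were assigned to the nearest TSS of GENCODE M39. Named are the called peaks, the 10 with the smallest p in each direction, peaks of fixed gene lists and peaks that the blocked comparison called. The members and lists were chosen with earlier results of these data known. Repeated sequence was measured as bases in 31-mers occurring more than once, since the genome given is not masked, a choice made after seeing the data, as were the older dispersion estimate, the fits without a replicate pair and the further blocked scalings. Results for a few genes are not reported here.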

Additional observations from a re-analysis of the deposited data

Results flagged for a closer look

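The effects of HP1α and HP1γ loss in naive cells differed, by the test of the difference itself, at 57 of 69174 peaks. At the main Cd4 peak the difference was -2.72 (SE 0.09, 95% interval -2.91 to -2.52, adjusted p = 9.06e-10), with -0.01 for HP1α and 2.71 for HP1γ, and at a second Cd4 peak, starting at 124876829, it was -1.63 with 0.03 and 1.65. The HP1γ KO cells carry a Cd4-cre transgene and their controls do not, so that the transgene and the loss of HP1γ cannot be told apart there. The difference was -3.30 at Amd-ps6, -3.28 at Gm49214 and -1.80 at Gm75287, where the HP1α effect was -0.88 and the HP1γ effect 0.92.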

How the results depend on the processing

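The count of 4 called peaks became 7 with DESeq2, 11 with GC offsets, 126 with limma voom, 2 with only the 6 naive libraries, 7 with all 18 HP1α libraries, and 1 with edgeR's older dispersion estimate. With the replicate block it was 5 in the 15 libraries, 12 with GC offsets, 17 with depth and 58 in the 6 naive libraries. That last count was 50 with library size alone, 50 with GC offsets, 64 with offsets on abundance, 44 with DESeq2, 56 with replicate 1 against the others as the block, and 155, 86 and 92 without pair 1, 2 or 3. Leaving out 1 library gave 2 to 8 calls, with 8 without WT replicate 1, 8 without KO replicate 2 and 2 without WT replicate 3. The difference from Tconv, 0 peaks, was 1 with DESeq2, 7 with the replicate block, and 0 to 2 without 1 library (2 without naive WT or KO replicate 2). The difference from HP1γ, 57 peaks, was 438 with DESeq2, 2059 with limma voom, 1403 with the replicate block, and 17 to 284 without 1 library, rising to 210 without HP1α KO replicate 1 and to 284 without HP1γ KO replicate 3, and falling to 17 to 35 without HP1α WT replicate 2 or 3, HP1α KO replicate 2 or 3, HP1γ WT replicate 2 or 3, or HP1γ KO replicate 1 or 2. The share of intervals within 2-fold, 77.5%, was 85.1% in the 6 naive libraries, 77.9% with the replicate block and 90.1% with both. Of 124 values of the 4 called peaks under the alternatives, 110 stayed called, 14 did not, and none changed sign. Of 4998 values of the other named peaks, 518 passed the threshold and 195 had the other sign. The cause was not tested. Weak peaks, with few reads in each library, limit what could be seen.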

Other observations

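Several peaks outside the gene lists had separate groups in naive cells. Gm35101 held 0.246, 0.451 and 0.468 CPM in the KO libraries and 1.96, 3.401 and 1.98 CPM in the WT libraries, with a log2 fold change of -2.67 (SE 0.44, 95% interval -3.59 to -1.74, adjusted p = 0.0884) without the block and -2.64 (SE 0.23, 95% interval -3.12 to -2.16, adjusted p = 0.000134) with it, and -1.18 in Tconv. At Gm43188, in the Auts2 region, the levels were 2.52, 2.6 and 2.33 CPM in the KO libraries and 5.397, 4.88 and 5.59 CPM in the WT libraries, all KO libraries below all WT libraries (log2 fold change -1.09, SE 0.12, 95% interval -1.34 to -0.84, adjusted p = 0.000894 with the block). Gm67865, near Spsb2, held 0.999, 0.875 and 1.18 CPM in the KO libraries and 1.91, 2.26 and 2.35 CPM in the WT libraries, again without overlap (log2 fold change -1.12, SE 0.18, 95% interval -1.5 to -0.74, adjusted p = 0.0131 with the block).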
